A study of Homo sapiens with 4 samples.

Results

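The genes described here are CECR2, the gene deleted in this study, and 9 genes for subunits of the same family of chromatin remodellers: SMARCA5, BPTF, BAZ1A, BAZ1B, BAZ2A, BAZ2B, RSF1, RBBP4 and RBBP7. Chromatin accessibility was measured by ATAC-seq, in which a transposase cuts and tags open DNA, and the deposited table counts cuts per peak. A peak belonged to a gene if it lay inside the gene or within 10 kb of either end, on the GRCh38 gene coordinates of RefSeq. This placed 87 of the 190348 peaks at the 10 genes, out of 20033 protein-coding genes. The rule used position alone and no measured value. The cells were LM2, a human breast cancer line derived from MDA-MB-231 selected for spread to the lung. The control group carried a nontargeting guide and the other group a CECR2 deletion made with guide sg1, with 2 libraries in each group and 50000 cells in each library. Cells of both groups were grown in the same medium with puromycin. Only 1 guide is represented, and the labels do not say whether the deleted cells were 1 clone or a pool. Nothing in the labels says whether replicates came from separate cultures, so p-values reflect only how much these particular libraries vary, which may be technical variation.

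Remodellers of the ISWI family use the energy of ATP to slide and space nucleosomes. Each complex pairs a motor subunit, SMARCA5 (SNF2H) or SMARCA1 (SNF2L), with a large partner that sets where it acts. BPTF forms NURF, CECR2 forms CERF, BAZ1A forms ACF and CHRAC, BAZ1B forms WICH, BAZ2A forms NoRC, RSF1 forms RSF, and BAZ2B is the bromodomain-containing relative of BAZ2A. RBBP4 and RBBP7 are WD-repeat proteins that bind histones and also sit in NuRD and Polycomb complexes. Accessibility at these genes shows the state of their own regulatory DNA. It does not measure the amount of any subunit, and no peak level checks the CECR2 deletion itself.

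After 109 peaks at the start of chromosome 1 were left out, the depth of the controls was 21002477 and 15561701 counts, and that of the sg1 libraries was 43519018 and 38924086. The omitted peaks took 17.9% to 18.0% of the counts in the control libraries and 25.4% in both sg1 libraries. With them kept, the counts of calls at the 10 genes given below were the same. Levels below are counts scaled to library depth (CPM) after TMM scaling, and differences are log2 fold changes of sg1 against control from edgeR's quasi-likelihood test. A difference passed at a Benjamini-Hochberg adjusted p under 0.05 over all features tested. Of all tested peaks, 11.5% were higher and 16.8% were lower in sg1. Promoter peaks of the basal mesenchymal markers of this line were present for 6 of 6 genes, at summed levels of 229 to 238 CPM in the control and 223 to 227 CPM in sg1. Peaks were also present at 7 of 7 luminal breast markers, summing to 72.4 to 78.2 CPM in the control and 84.3 to 84.4 CPM in sg1. For their length these ran from 2.70 CPM per kb at CDH1, the epithelial cadherin, to 30.6 at KRT8. The basal mesenchymal markers ran from 14.9 to 59.2 CPM per kb, and the median over all promoter peaks was 17.6. Among haematopoietic markers, PTPRC had no promoter peak, and SPI1, CD3E and LAPTM5 summed to 89.0 to 93.5 CPM in the control and 78.5 to 82.1 CPM in sg1. Of 5 fibroblast and endothelial markers, PECAM1, CDH5 and DCN had none, and the other 2 summed to 31.4 to 34.2 CPM in the control and 42.2 to 44.5 CPM in sg1. Calls at single markers went both ways. In sg1 AXL (0.22), GATA3 (0.76) and COL1A1 (0.39) were higher, and MSN (−0.56), CD3E (−0.26) and LAPTM5 (−0.20) were lower. In DESeq2 the calls of AXL, CD3E and LAPTM5 were lost. Of all promoter peaks, 30.9% were higher and 8.37% were lower. The part of these marker levels in the results below was not tested.

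The start regions of the genes differed in base composition. The 4 shown were picked by lack of a peak or by the size of the group difference, and a link between sequence and difference was not tested. CECR2 had no peak at its listed start, BAZ1B and RBBP4 had the promoters with the largest differences between the groups, and RBBP7 had the smallest. The RefSeq promoter table (GRCh38.p14) matched 8 of the 10 members, with 12 listed starts, of which 11 lay inside a peak. Each sequence is the 250 bases just before a start, 5′ to 3′ on the gene's strand. Capitals mark matches on either strand to the fixed motifs GGGCGG (SP1), CCAAT (NFY), CCGGAAG (ETS), GCGCATGC (NRF1), AAGATGGC (YY1), TTTCCCGC (E2F) and GGGACTTTC (NF-kB). Those of CECR2 lie at chr22:17359699-17359948 on the plus strand, of BAZ1B at chr7:73522294-73522543 on the minus strand, of RBBP4 at chr1:32650958-32651207 on the plus strand and of RBBP7 at chrX:16870363-16870612 on the minus strand.
CECR2: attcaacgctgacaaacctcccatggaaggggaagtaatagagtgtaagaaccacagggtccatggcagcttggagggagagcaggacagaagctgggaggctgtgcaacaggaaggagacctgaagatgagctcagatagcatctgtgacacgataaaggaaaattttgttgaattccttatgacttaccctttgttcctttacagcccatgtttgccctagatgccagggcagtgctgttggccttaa
BAZ1B: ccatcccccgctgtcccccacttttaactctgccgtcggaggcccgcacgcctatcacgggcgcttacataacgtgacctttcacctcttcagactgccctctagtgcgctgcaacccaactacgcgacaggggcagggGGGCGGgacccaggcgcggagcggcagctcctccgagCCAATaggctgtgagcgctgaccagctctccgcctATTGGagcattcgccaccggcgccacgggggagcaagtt
RBBP4: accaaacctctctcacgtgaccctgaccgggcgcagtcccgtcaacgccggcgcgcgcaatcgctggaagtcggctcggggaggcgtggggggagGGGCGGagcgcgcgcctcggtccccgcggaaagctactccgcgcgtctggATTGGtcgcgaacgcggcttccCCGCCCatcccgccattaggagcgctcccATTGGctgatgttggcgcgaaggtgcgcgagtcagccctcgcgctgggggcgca
RBBP7: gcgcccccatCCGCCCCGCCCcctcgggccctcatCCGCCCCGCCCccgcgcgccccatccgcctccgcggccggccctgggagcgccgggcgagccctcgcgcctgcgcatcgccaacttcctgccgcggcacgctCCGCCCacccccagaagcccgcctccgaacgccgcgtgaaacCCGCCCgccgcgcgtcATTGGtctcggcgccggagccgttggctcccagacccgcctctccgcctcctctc

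The CECR2 start held 2 CpG dinucleotides in its window of 300 bases, from 250 before to 50 after the start, which placed it at percentile 11.0 of 35116 promoter windows. The window of BAZ1B held 26, that of the first RBBP4 start 42 and those of the 2 RBBP7 starts 44 and 54, against a median of 14 over all windows. BAZ2A, which had the fewest CpGs among the starts inside a peak, held 7 at its first start and 19 at its second. GGGCGG was found in 11 of the 12 member windows, all but that of CECR2, and in 45.0% of all promoter windows. CCAAT was found in 5 of 12 and in 34.6% of all. Those 5 were the BAZ1B window and the windows of both RBBP4 starts and both RBBP7 starts. The RBBP4 windows overlap, so matches in the part they share count for both. CCGGAAG and AAGATGGC were each found in 1 of 12, the second RBBP7 start, against 10.3% and 2.89% of all windows. GCGCATGC, TTTCCCGC and GGGACTTTC were found in none of the 12, against 3.05%, 1.63% and 0.387% of all. No searched motif contains another, and matches to GGGCGG can share a base, as at RBBP7. A match is only a description of letters.

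CECR2, the bromodomain subunit of CERF, had 5 peaks, all at least 126 kb from its listed start, and none counted as a promoter peak. The tallest lay inside the gene at chr22:17528944-17529762, and its counts were 178 and 106 in the control and 412 and 445 in sg1. In scaled terms this was 8.65 and 6.91 CPM in the control and 9.31 and 11.3 CPM in sg1, so both sg1 libraries lay above both controls. The difference was 0.39 (SE 0.15, adjusted p = 0.0430, edgeR) and passed, but DESeq2 gave an adjusted p of 0.179. Without control replicate 2 the difference was 0.25 (edgeR adjusted p = 0.246), and without sg1 replicate 2 it was 0.27 (edgeR adjusted p = 0.399).

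The other 4 CECR2 peaks did not pass. The peak at chr22:17486421-17486577 held 9 and 5 counts in the controls and 17 and 27 in sg1, with a difference of 0.45 (SE 0.53). The peak at chr22:17501738-17501984 stood at 1.85 and 2.15 CPM in the control and 1.56 and 1.37 CPM in sg1 (−0.44, SE 0.29), the controls above both sg1 libraries. Just past the gene's end, chr22:17558258-17558444 held 15 and 10 counts in the controls and 22 and 16 in sg1 (−0.61, SE 0.47). The neighbouring peak chr22:17558459-17559041 stood at 3.60 and 3.39 CPM in the control and 3.35 and 4.18 CPM in sg1, where the groups overlapped (0.10, SE 0.21). These last 2 peaks also lie within 10 kb of SLC25A18.

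Since CECR2 had no promoter peak, the genes most like it were sought with its tallest peak in place of a promoter, a substitution chosen after the values were seen. By Euclidean distance in log2 CPM over the 4 libraries, the nearest promoter peaks were those of STAC3 at 0.0859, SNF8 at 0.115 and ANKS1B at 0.124. The STAC3 promoter stood at 8.56 and 6.98 CPM in the control and 9.81 and 11.0 CPM in sg1.

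The 9 partner genes each had a promoter peak, taken as the tallest peak within 1 kb of a listed start, or within 1 kb of either gene end for BPTF and BAZ1A. Across all libraries and per kb of peak they spanned 8.60 CPM per kb at RBBP7 to 40.6 at BAZ2A, against a median of 17.6 over 12869 promoter peaks. Of these 9 promoters, 4 were higher in sg1 and 0 were lower. Among all promoter peaks, 30.9% were higher and 8.37% were lower, beside 44.4% and 0 of the members. The median difference was 0.17 over the 9 and 0.16 over all. DESeq2 also called 4 higher and 0 lower, and 0 were lower at an unadjusted p under 0.05 in edgeR. The libraries of the 2 groups did not overlap at 71.6% of all tallest promoter peaks and at 63.7% of all tested peaks, so separation alone was common.

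**Figure D1:**
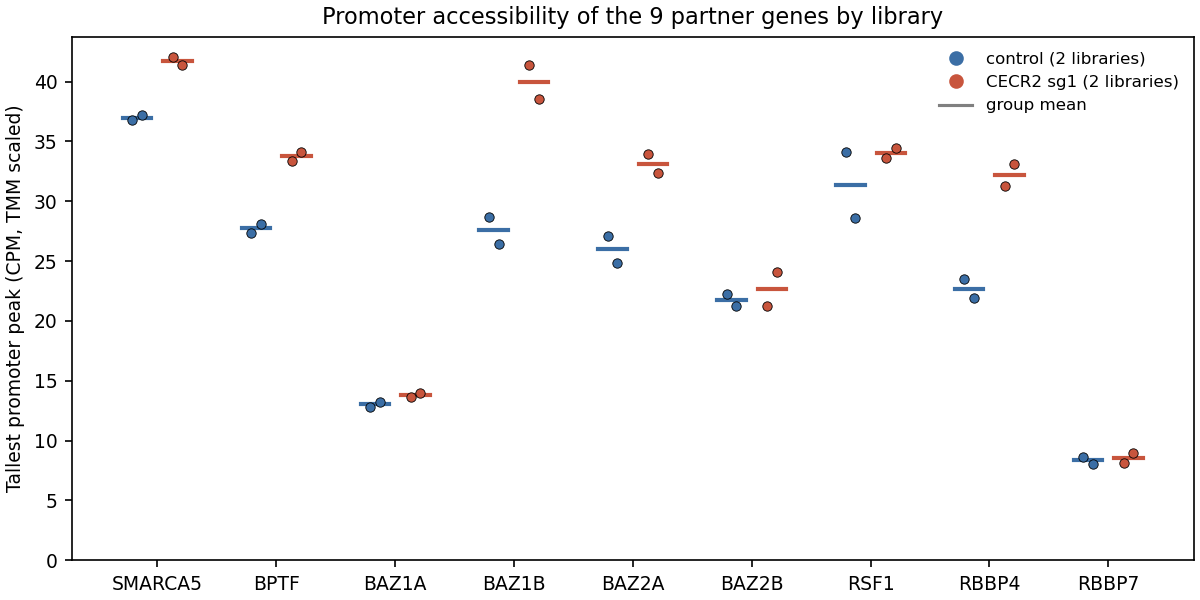
Accessibility of the tallest promoter peak of the 9 partner genes, in CPM after TMM scaling, for the 2 control and 2 CECR2 sg1 libraries; points are libraries and lines are group means. BAZ1B stood at 26.4 to 28.7 CPM in the control and 38.6 to 41.3 CPM in sg1, while the BAZ2B, RSF1 and RBBP7 libraries of the 2 groups overlapped.

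SMARCA5, the motor of most ISWI complexes, had its promoter peak at chr4:143513014-143514271. It stood at 36.8 and 37.2 CPM in the control and 42.0 and 41.3 CPM in sg1. Both sg1 libraries lay above both controls, but the difference of 0.17 (SE 0.07, edgeR adjusted p = 0.0629) did not pass. It passed with scaling by library size alone, at 0.22 (adjusted p = 0.0167), with cyclic loess offsets, at 0.23 (adjusted p = 0.0110), and with its promoter peaks summed, at 0.15 (adjusted p = 0.0494). A pair of small peaks downstream of the gene was higher in sg1. The one at chr4:143558800-143559308 stood at 1.80 and 1.44 CPM in the control and 2.94 and 3.35 CPM in sg1 (0.94, SE 0.26, edgeR adjusted p = 0.00670). The one at chr4:143559339-143559696 stood at 0.535 and 1.24 CPM in the control and 2.08 and 2.46 CPM in sg1 (1.42, SE 0.34, edgeR adjusted p = 0.00195). The first lost its call in DESeq2 (adjusted p = 0.0631) and without sg1 replicate 2 (adjusted p = 0.0765). The second lost its call without control replicate 1, where the difference was 0.86 (adjusted p = 0.0823).

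BPTF, the large subunit of NURF that reads methylated histone tails, had a promoter peak at chr17:67824736-67826238. It stood at 27.3 and 28.1 CPM in the control and 33.4 and 34.1 CPM in sg1, with no overlap between groups. It was higher by 0.29 (SE 0.08, edgeR adjusted p = 0.00496), and lost its call without sg1 replicate 2 (0.29, adjusted p = 0.0574). Inside the gene, chr17:67963036-67963595 was higher, at 2.04 and 1.89 CPM in the control and 3.39 and 2.87 CPM in sg1 (0.67, SE 0.25, adjusted p = 0.0443). The peak at chr17:67992793-67994173 ended 9.80 kb past the gene, in the promoter window of C17orf58, and was higher as well (0.44, SE 0.14, edgeR adjusted p = 0.0139). It stood at 14.6 and 8.74 CPM in the control and 14.9 and 17.5 CPM in sg1. The high control replicate 1 lay close to the lower sg1 library, and the call was lost without control replicate 2 (0.15, adjusted p = 0.382) and without sg1 replicate 2 (0.35, adjusted p = 0.123). Neither of these peaks passed in DESeq2 (adjusted p = 0.212 and 0.463), and the one inside the gene lost its call when any 1 library was left out (edgeR adjusted p of 0.0830 to 0.298). A further pair of BPTF peaks was too low to test, with 15, 4, 4 and 5 counts and with 7, 10, 10 and 6 counts over the 4 libraries.

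BAZ1A (ACF1), the large subunit of ACF and CHRAC, had 9 peaks, of which those that passed were inside the gene and lower. The promoter peak chr14:34874792-34875579 did not pass and stood at 12.8 and 13.2 CPM in the control and 13.7 and 14.0 CPM in sg1 (0.09, SE 0.11, edgeR adjusted p = 0.586). The tallest BAZ1A peak, chr14:34873215-34874317, lay 1.04 kb inside the gene end, just outside the promoter window. It stood at 25.9 and 25.0 CPM in the control and 23.5 and 21.5 CPM in sg1 (−0.18, SE 0.09, adjusted p = 0.121). A widened promoter window of 2 kb takes that peak in place of the first, so the sign of the promoter value turns. Inside the gene, chr14:34781191-34781846 was lower in sg1, at 11.2 and 15.7 CPM in the control and 6.98 and 6.01 CPM in sg1. The log2 fold change was −1.03 (SE 0.15, edgeR adjusted p = 1.44e-06), and both controls lay well above both sg1 libraries. The small peak chr14:34826755-34826977 was lower too, with 23 and 16 counts in the controls and 21 and 10 in sg1 (−1.55, SE 0.46, adjusted p = 0.0101). This one lost its call in DESeq2 (adjusted p = 0.0976) and without sg1 replicate 2 (edgeR adjusted p = 0.182).

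BAZ1B (WSTF), the WICH subunit whose gene lies in the region deleted in Williams syndrome, had the largest promoter difference of the 9. Its peak at chr7:73521560-73522909 stood at 28.7 and 26.4 CPM in the control and 41.3 and 38.6 CPM in sg1. It was higher by 0.53 (SE 0.08, edgeR adjusted p = 2.07e-06), a 1.45-fold difference. Past the other end of the gene, chr7:73436042-73436731 was lower, at 7.34 and 8.22 CPM in the control and 3.23 and 4.03 CPM in sg1 (−1.10, SE 0.18, adjusted p = 1.49e-05). A small peak near it, at chr7:73433599-73433777, lay in the promoter window of FZD9 and was higher. It held 5 and 2 counts in the controls and 31 and 24 in sg1 (1.74, SE 0.59, edgeR adjusted p = 0.0250). Only its sg1 libraries carried it past the filter for low counts, and DESeq2 gave it no adjusted p. It lost its call without control replicate 2 (1.42, adjusted p = 0.118) and without either sg1 replicate (adjusted p = 0.215 and 0.119).

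BAZ2A (TIP5), the NoRC subunit known for silencing ribosomal RNA genes, had 13 peaks over a gene of 42.7 kb. Its tallest promoter peak, chr12:56636579-56637306, also lies within 1 kb of an end of ATP5F1B. It stood at 27.1 and 24.9 CPM in the control and 33.9 and 32.4 CPM in sg1, and was higher by 0.35 (SE 0.08, edgeR adjusted p = 0.00108). The narrow intragenic peak chr12:56632397-56632547 stood at 1.36 and 1.37 CPM in the control and 3.98 and 3.40 CPM in sg1. That was a 2.70-fold difference (1.43, SE 0.26, edgeR adjusted p = 7.86e-05). The tall peak at chr12:56645687-56646461, which ended 8.14 kb beyond BAZ2A and lay within 1 kb of the other end of ATP5F1B, was lower. It stood at 40.4 and 44.1 CPM in the control and 34.6 and 34.0 CPM in sg1 (−0.30, SE 0.07, adjusted p = 0.00189), and lost its call without sg1 replicate 2 (−0.27, adjusted p = 0.0509). To complete the count, chr12:56634950-56635351 (0.45) and chr12:56630036-56630186 (1.29) were also higher. Neither passed in DESeq2 (adjusted p = 0.0561 and 0.155), and both lost their calls without control replicate 2 (edgeR adjusted p = 0.0515 and 0.0795) and without sg1 replicate 1 (edgeR adjusted p = 0.0808 and 0.129); the second also did without sg1 replicate 2 (edgeR adjusted p = 0.0657).

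BAZ2B, a bromodomain relative of BAZ2A, had 16 peaks over 397 kb, and those that passed were all inside the gene and lower. Its promoter peak chr2:159711915-159713082, shared with MARCHF7, stood at 22.3 and 21.2 CPM in the control and 21.2 and 24.0 CPM in sg1. The groups overlapped (0.06, SE 0.09, edgeR adjusted p = 0.693). At chr2:159349634-159350153 the levels were 4.47 and 3.59 CPM in the control and 1.94 and 1.95 CPM in sg1 (−1.06, SE 0.23, edgeR adjusted p = 0.000759). At chr2:159317777-159318027 the levels were 0.972 and 2.41 CPM in the control and 0.655 and 0.761 CPM in sg1 (−1.21, SE 0.39, edgeR adjusted p = 0.0183). Control replicate 2 set much of this: without it the difference was −0.46 (adjusted p = 0.511). The call was also lost in DESeq2 (adjusted p = 0.118) and without sg1 replicate 1 or 2 (edgeR adjusted p = 0.105 and 0.0509). The third, chr2:159684489-159684781, stood at −0.97 (edgeR adjusted p = 0.0413) and lost its call in DESeq2 (adjusted p = 0.223), with library size only (edgeR adjusted p = 0.0518) and when any 1 library was left out (edgeR adjusted p of 0.0834 to 0.240). The tallest peak outside its promoter windows, chr2:159497212-159497877, stood at 8.31 and 9.39 CPM in the control and 7.44 and 7.63 CPM in sg1 (−0.23, adjusted p = 0.251). All 13 tested BAZ2B peaks inside the gene and outside its promoter windows are shown in the plot of tested peaks by gene.

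**Figure D2:**
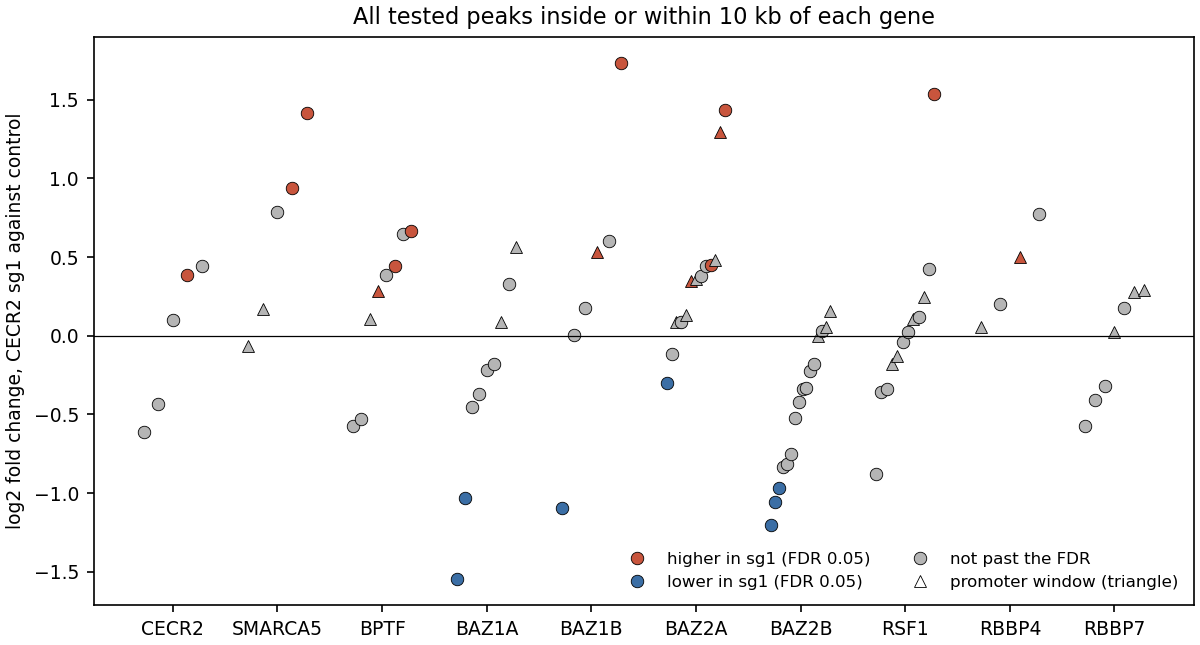
log2 fold change of sg1 against control for every tested peak inside or within 10 kb of the 10 genes; triangles are peaks in a promoter window of the gene and colours mark peaks past an FDR of 0.05. BAZ2A has peaks from −0.30 to 1.43, while the passed peaks of BAZ2B lie between −1.21 and −0.97.

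RSF1, the histone chaperone subunit of RSF, had a promoter peak at chr11:77820436-77821275 that it shares with AAMDC. It stood at 34.1 and 28.6 CPM in the control and 33.6 and 34.5 CPM in sg1, so the groups overlapped (0.11, SE 0.08, edgeR adjusted p = 0.328). Without control replicate 1 the difference was 0.25 (adjusted p = 0.0313), and without control replicate 2 it was −0.01 (adjusted p = 0.970). The tallest peak outside the promoter windows, chr11:77705270-77705915, stood at 4.57 and 5.61 CPM in the control and 4.77 and 5.05 CPM in sg1. Of 12 peaks only a small one passed, at chr11:77710447-77710639, with 5 and 4 counts in the controls and 22 and 39 in sg1 (1.54, SE 0.57, edgeR adjusted p = 0.0395). Only its sg1 libraries carried it past the filter for low counts. It lost its call in DESeq2 (adjusted p = 0.239), with cyclic loess offsets (edgeR adjusted p = 0.0619) and without control replicate 1, control replicate 2 or sg1 replicate 2 (edgeR adjusted p of 0.127, 0.0665 and 0.503).

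In the histone-binding pair, the tallest promoter peak passed at RBBP4 and did not at RBBP7. These genes were not tested against each other. The RBBP4 promoter peak chr1:32650829-32651783, shared with ZBTB8OS, stood at 23.5 and 21.9 CPM in the control and 31.3 and 33.1 CPM in sg1. It was higher by 0.50 (SE 0.08, edgeR adjusted p = 1.65e-05). The adjoining promoter peak chr1:32650242-32650748 did not pass, at 13.8 and 13.6 CPM in the control and 13.7 and 14.8 CPM in sg1 (0.06, SE 0.11). The tallest peak outside the promoter, chr1:32694993-32695682, did not pass (0.20, SE 0.16). At RBBP7, on chromosome X, 0 of 7 peaks passed in edgeR, 0 in DESeq2 and 0 at an unadjusted p under 0.05. Its promoter peak chrX:16870156-16871136 stood at 8.65 and 8.02 CPM in the control and 8.14 and 8.93 CPM in sg1 (0.03, SE 0.14, edgeR adjusted p = 0.911). Its tallest other peak, chrX:16856100-16856443, stood at 1.75 and 1.76 CPM in the control and 2.42 and 1.52 CPM in sg1.

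Over all members, 85 of the 87 peaks could be tested, of which 14 (16.5%) were higher and 7 (8.24%) were lower in sg1. The small BAZ1B and RSF1 peaks that passed the count filter only through sg1 are among the 14. Of all tested peaks inside or within 10 kb of a protein-coding gene, 12.2% were higher and 15.5% were lower. DESeq2 called 6 higher and 4 lower of the members' peaks, and 8483 and 17869 of all 184717 tested peaks. In the 25 promoter-window peaks 5 were higher and 0 lower, beside 21.8% and 6.49% of all peaks in a promoter window. In the 57 peaks outside every promoter window 7 (12.3%) were higher and 6 (10.5%) lower, with a median of −0.18. Of all such peaks near genes, 9.83% were higher and 17.8% were lower, with a median of −0.02. Leaving out sg1 replicate 2, or control replicate 2, lowered the number of calls both at the members and over all tested peaks.

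The next comparison asked whether partner promoters shifted beyond the other promoters of the same 5 Mb of chromosome. Each library was scaled for each promoter by the median shift of the other promoters in its fixed 5 Mb segment, and edgeR was rerun over 12678 promoters. None of the 9 promoters passed in either direction (0 of 9 in edgeR, 1 at an unadjusted p under 0.05, 0 in DESeq2). Among all promoters, 7.69% were higher and 12.4% were lower than their segment. Beyond the segment, the 9 differences ran from −0.05 at BAZ1B to 0.18 at RBBP4, with 95% intervals reaching from −0.21 to 0.42. Of the 9 differences, 8 were above 0, with a median of 0.08 against 0.01 over all promoters. Intervals of this width leave room for shifts as large as some that passed before this scaling, such as 0.29 at BPTF. A shift shared by a segment may be a change of DNA copy number or of chromatin, and the 2 cannot be told apart here.

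BAZ1B showed the largest part shared with its segment. The 26 other promoters between 70 and 75 Mb of chromosome 7 had a median difference of 0.60, and 19 of them were higher and 0 lower. BAZ1B ranked 18 of 27, so its 0.53 lay below the segment's middle. After scaling to the segment its promoter stood at 33.9 and 32.7 CPM in the control and 33.8 and 30.8 CPM in sg1 (−0.05, SE 0.08, edgeR adjusted p = 0.728). The 274 peaks of the segment outside promoters had a lower median of 0.30, with 72 higher and 21 lower. BAZ2A lay between 55 and 60 Mb of chromosome 12, where 71 other promoters had a median of 0.34, near its own 0.35. It ranked 35 of 72 and differed from the segment by 0.03 (SE 0.08, edgeR adjusted p = 0.846).

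RBBP4 and SMARCA5 kept the largest differences beyond their segments, and neither passed. RBBP4 lay among 47 other promoters between 30 and 35 Mb of chromosome 1 with a median of 0.36, of which 24 were higher and 4 lower. Scaled to them it stood at 25.7 and 25.4 CPM in the control and 28.5 and 29.2 CPM in sg1 (0.18, SE 0.09, edgeR adjusted p = 0.151), ranking 15 of 48. SMARCA5, between 140 and 145 Mb of chromosome 4, had 12 other promoters with a median of 0.01. It ranked 2 of 13 and stood at 36.9 and 36.7 CPM in the control and 41.7 and 40.9 CPM in sg1 after scaling (0.17, SE 0.07, edgeR adjusted p = 0.0982). In both genes the scaled sg1 libraries lay above both controls, as they also did at BPTF and RBBP7. Before scaling, the groups did not overlap at 71.6% of all tallest promoter peaks, and the share after scaling was not counted. With the segment's shift taken instead from summed counts of the other promoters, RBBP4 and SMARCA5 both passed. The differences were 0.25 (edgeR adjusted p = 0.0287) for RBBP4 and 0.18 (edgeR adjusted p = 0.0494) for SMARCA5. With the shift taken from all peaks of the segment, 4 promoters passed: RBBP4 at 0.28, RSF1 at 0.23, and SMARCA5 and BPTF both at 0.21. That reference holds peaks outside promoters, whose median in these segments was lower than that of promoters.

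**Figure D3:**
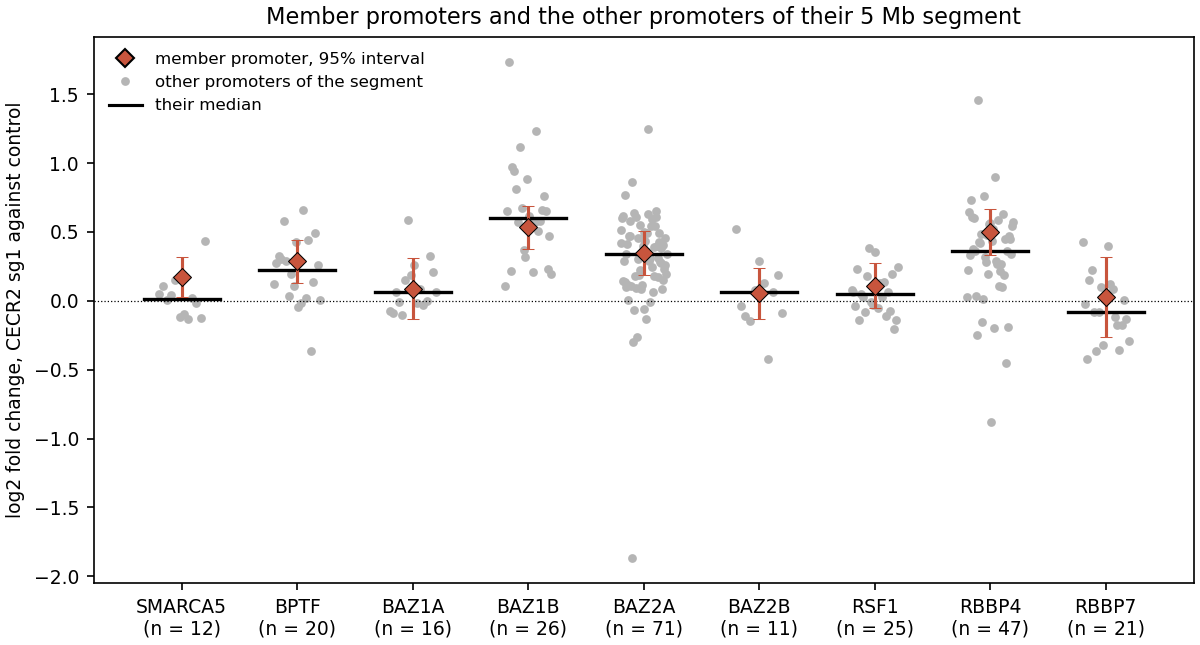
log2 fold change of sg1 against control for the tallest promoter peak of the 9 genes (red diamonds, bars are 95% intervals) and of the other promoters in the same 5 Mb segment (grey points, n below each name, black line their median). The BAZ1B, BAZ2A and RBBP4 segments have medians of 0.60, 0.34 and 0.36, and the members lie inside the spread of their neighbours.

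The other 5 promoters sat within their segments too. BPTF differed by 0.29 over all libraries but by 0.09 (SE 0.08, edgeR adjusted p = 0.460) from the 20 other promoters of its segment, whose median was 0.23. BAZ1A (0.03), BAZ2B (0.03) and RSF1 (0.08) lay in segments with medians of 0.06, 0.06 and 0.05. RBBP7 lay in the only segment of the 9 with a median under 0, at −0.08, and differed from it by 0.13 (SE 0.14, edgeR adjusted p = 0.560).

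**Figure D4:**
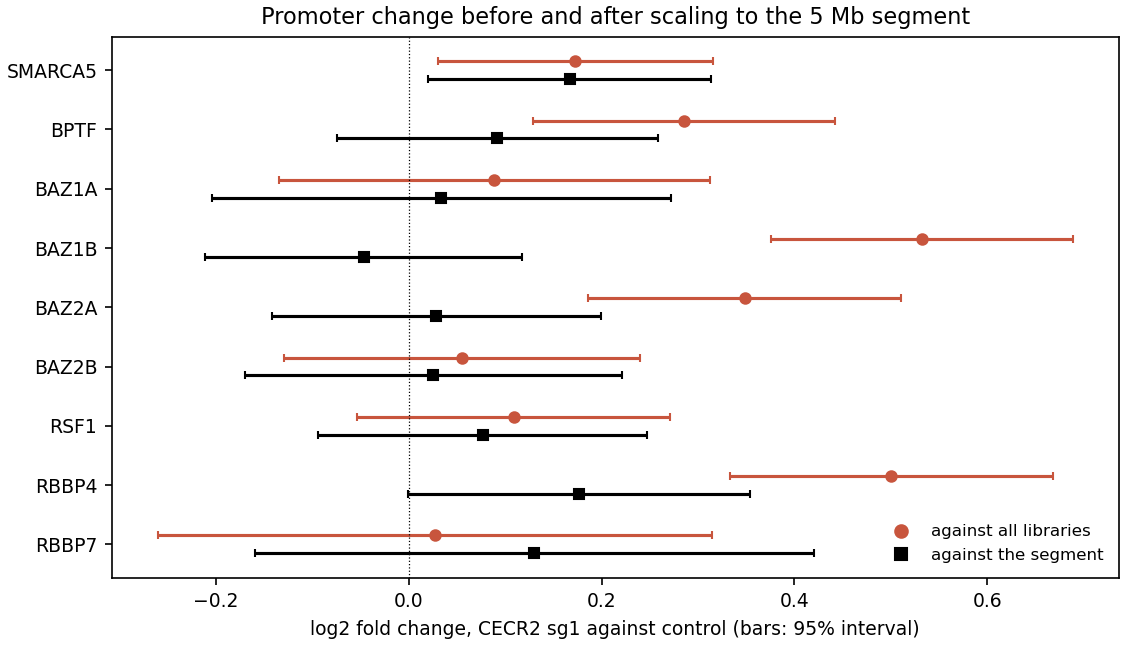
log2 fold change of each partner promoter before (red circles) and after (black squares) scaling to the other promoters of its 5 Mb segment; bars are 95% intervals. BAZ1B goes from 0.53 to −0.05 and BAZ2A from 0.35 to 0.03, while SMARCA5 stays at 0.17.

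Counts summed over all peaks of a gene gave 1 value per gene and library. Some peaks also counted for neighbouring genes: 4 of 6 at BAZ1B (FZD9), all 4 at RBBP4 (SYNC and ZBTB8OS) and all 13 at BAZ2A (ATP5F1B and RBMS2). Peaks were also shared by CECR2 (SLC25A18), BPTF (C17orf58), BAZ2B (MARCHF7), RSF1 (AAMDC and INTS4) and RBBP7 (TXLNG). Of the 10 members, 4 were higher and 2 were lower in sg1. Over 18545 genes, 24.2% were higher and 26.4% were lower. The higher ones were RBBP4 at 44.3 and 44.5 CPM in the control and 53.6 and 54.8 CPM in sg1 (0.29), BAZ1B (0.27), BPTF (0.25) and SMARCA5 (0.20), with edgeR adjusted p-values of 2.44e-05, 0.000300, 0.000131 and 0.00413. BAZ1A was lower, at 62.3 and 64.4 CPM in the control and 54.2 and 49.5 CPM in sg1 (−0.29, SE 0.06, edgeR adjusted p = 4.56e-06). BAZ2B was lower, at 73.7 and 76.4 CPM in the control and 65.1 and 67.7 CPM in sg1 (−0.18, SE 0.05, edgeR adjusted p = 0.00244). CECR2 stood at 15.5 and 13.7 CPM in the control and 14.9 and 17.6 CPM in sg1 and did not pass (0.15, SE 0.11, edgeR adjusted p = 0.271). BAZ2A (0.07), RSF1 (−0.02) and RBBP7 (0.02) did not pass either.

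The totals were also taken without promoter peaks; the difference between promoters and the remaining peaks was not itself tested. Without promoter peaks the BAZ1B total turned from 0.27 to −0.48 (SE 0.14, edgeR adjusted p = 0.00321). The tallest of these remaining peaks, chr7:73436042-73436731 in the flank, had means of 7.78 CPM in the control and 3.63 CPM in sg1. It was the only BAZ1B peak called lower. The SMARCA5 total was 1.05 (SE 0.19) without promoter peaks, and the BAZ1A and BAZ2B totals were −0.39 (SE 0.07) and −0.38 (SE 0.08). RBBP4 no longer passed (0.25, adjusted p = 0.163). BAZ2A passed when only peaks inside the gene were summed (0.28, edgeR adjusted p = 7.21e-07), where SMARCA5 did not (0.12, adjusted p = 0.145). The BAZ2B call was lost with scaling by library size alone (−0.08, adjusted p = 0.157) and without sg1 replicate 1 (−0.15, adjusted p = 0.0965). The SMARCA5 call was lost without control replicate 1 (adjusted p = 0.0554) and without sg1 replicate 1 (adjusted p = 0.0611).

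**Figure D5:**
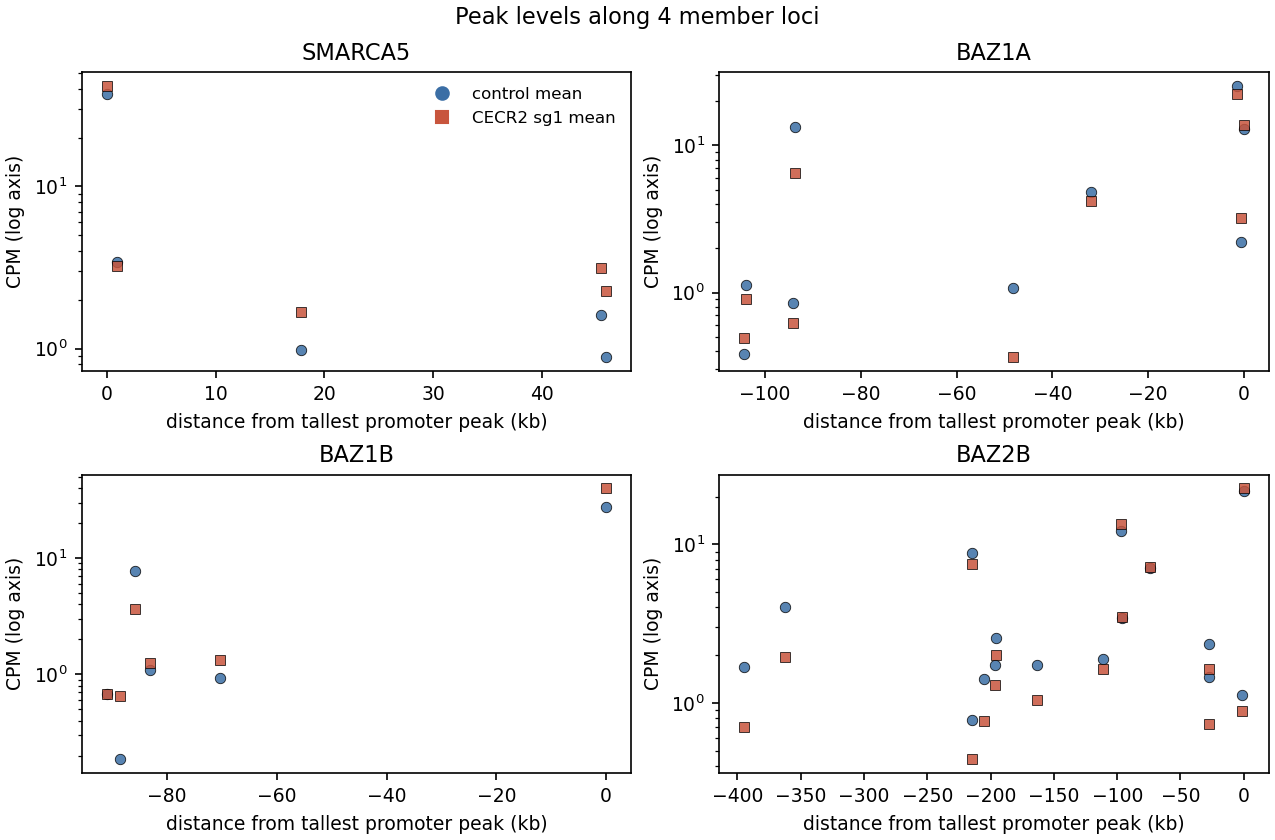
Mean CPM (log axis) of the control and sg1 libraries at each tested peak of SMARCA5, BAZ1A, BAZ1B and BAZ2B against distance from the tallest promoter peak in kb. Inside BAZ1A the control mean of 13.4 CPM falls to 6.50 CPM in sg1 at one peak, while the promoter means stand at 13.0 and 13.8 CPM.

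The other ISWI subunits were read at their promoters. All 7 of SMARCA1, CHRAC1, POLE3, HMGXB4, BACC1, LUZP1 and MYBBP1A had a promoter peak, of which 2 were higher and 0 lower, with a median of 0.15 against 0.16 over all promoters, of which 30.9% were higher and 8.37% lower. CHRAC1, a histone-fold subunit of CHRAC, rose from 64.4 ± 1.00 to 72.4 ± 1.26 CPM (SD, n = 2; 0.17, edgeR adjusted p = 0.0318). HMGXB4, an HMG-box protein found with NURF, rose from 4.64 ± 0.997 to 6.82 ± 0.898 CPM (SD, n = 2; 0.58, edgeR adjusted p = 0.0159). Neither passed in DESeq2 (adjusted p = 0.0740 and 0.106). SMARCA1, the motor that pairs with CECR2 in CERF, stood at 15.8 ± 2.32 CPM in the control and 18.2 ± 0.617 CPM in sg1 (SD, n = 2) and did not pass (0.21, edgeR adjusted p = 0.131). Against their segments 0 were higher and 1 was lower, beside 7.69% and 12.4% of all promoters. The lower one was BACC1, a BPTF-associated protein also named C17orf49, at −0.21 (SE 0.08, edgeR adjusted p = 0.0457). Before scaling to the segment BACC1 stood at 36.8 ± 0.516 CPM in the control and 37.6 ± 2.18 CPM in sg1 (SD, n = 2). That difference did not pass (0.03, edgeR adjusted p = 0.791), and the peak also lies in the promoter window of RNASEK.

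Of 18 motor subunits of other remodellers, 17 had a promoter peak and CHD5 had none. Of the 17, 5 were higher and 1 was lower, with a median of 0.16, which is near the shares of all promoters given above. The higher ones were SMARCA4 (BRG1, a SWI/SNF motor) at 0.61, CHD4 (the NuRD motor) at 0.57, CHD7 at 0.46, EP400 at 0.31 and HELLS at 0.26. In DESeq2 the calls of CHD7 (adjusted p = 0.0758), EP400 (0.0848) and HELLS (0.104) were lost. SMARCA2 (BRM, the other SWI/SNF motor) was lower, from 54.0 ± 1.62 to 47.1 ± 0.930 CPM (SD, n = 2; −0.20, edgeR adjusted p = 0.0215), and was not called in DESeq2 (adjusted p = 0.0849). Of the 16 that could be set against their segment, 2 were higher, SMARCA4 at 0.42 and CHD7 at 0.45, with edgeR adjusted p-values of 0.0376 and 0.0223. The 2 lower ones were SMARCA2 at −0.23 and CHD6 at −0.26, with edgeR adjusted p-values of 0.0148 and 0.0123. Before scaling to the segment CHD6 stood at 39.1 ± 1.64 CPM in the control and 38.4 ± 1.47 CPM in sg1 (SD, n = 2). That difference did not pass (−0.02, edgeR adjusted p = 0.855). Of all promoters, 7.69% were higher and 12.4% lower than their segment. SMARCA4 stood at 6.70 ± 0.154 CPM in the control and 10.2 ± 0.680 CPM in sg1 (SD, n = 2).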

How the data were processed

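ATAC-seq libraries of LM2 cells were analysed, 2 of the control and 2 of the CECR2 deletion with guide sg1. The authors deposited unscaled counts for 190348 peaks (median length 298 bases), made with featureCounts 1.6.0 on files named for cut sites, per the file headers. The submitters' processing notes also name MACS2 2.2.4, Bowtie2, Trimmomatic 0.39, deepTools 3.1.3, DESeq2 1.32, CASAVA and SAMtools. The genome build and any removal of duplicates were not given in the sources used here. GRCh38.p14 RefSeq genes were used because a peak lay within 1 kb of an end for 73.4% of the 20033 protein-coding genes, against 31.1% and 30.9% with peaks shifted by 100 kb.

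The 109 peaks within the first 250 kb of chromosome 1, which begin like a mitochondrial genome by position alone, were left out of library sizes and tests. They held 17.9% of the counts in control replicate 2, the shallowest library (95% Wilson interval 17.87% to 17.90%, counting error only). The main test was the quasi-likelihood F test of edgeR 4.0.16 under R 4.3.3, with TMM scaling and filterByExpr, which kept 184717 peaks and dropped 5522. The SE is the log2 fold change divided by the square root of F. DESeq2 1.42.0, limma 3.58.1 (cyclic loess) and Python 3.11.15 served the alternatives and summaries. Promoters were placed by listed starts for 15842 genes and by either gene end for 4191. The segment test added the median log2 shift of at least 5 other promoters of a fixed 5 Mb bin to the offset. The fits were tested on simulated data.

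The members, gene lists and tests were chosen with earlier results of these data known. The rule for named peaks takes each member's tallest promoter peak, every CECR2 peak, up to 2 passed peaks outside the promoter window with the smallest p, the tallest other peak, and list genes past the FDR; peaks that complete a small count, and the adjoining RBBP4 promoter peak, were chosen after their values were seen. Alternatives covered the test, scaling, filter, replicates left out, replicate block, flank, promoter window and segment.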

Additional observations from a re-analysis of the deposited data

How the results depend on the processing

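With each library left out in turn, 3 to 5 partner promoters were higher and 0 lower, and 0 passed against the segment in either direction. The members' peaks then counted 6 to 12 higher and 3 to 7 lower, and the locus totals 3 to 4 higher and 1 to 2 lower. Over all tested peaks the calls also fell when a library was left out. DESeq2 gave 6 higher and 4 lower peaks of the members, beside 8483 and 17869 of all 184717. The count above the segment became 4 with the shift taken from all peaks and 2 with summed counts. Locus totals counted 2 higher without promoter peaks and 1 lower with library size only. Signs turned mostly at values near 0, and the cause was not tested. Without 1 library, the CECR2 peak starting at 17558459 ranged from −0.0480 to 0.272. The promoter values ranged from −0.0167 to 0.159 for BAZ2B, −0.00569 to 0.246 for RSF1 and −0.0236 to 0.110 for RBBP7. The segment differences ranged from −0.0397 to 0.0891 for BAZ1A, −0.134 to 0.00632 for BAZ1B, −0.0306 to 0.0795 for BAZ2A, −0.0542 to 0.0952 for BAZ2B and −0.0333 to 0.207 for RSF1. The totals ranged from −0.0728 to 0.0521 for RSF1 and −0.0742 to 0.128 for RBBP7. With a promoter window of 2 kb, which takes another peak, BAZ1A stood at −0.178 and at −0.233 against its segment. With 2 Mb segments BPTF stood at −0.0445 and BAZ2B at −0.00640; with 10 Mb segments BAZ1B stood at 0.00797 and BAZ2A at −0.00331. BAZ1B stood at 0.00453 with a centred window, 0.171 with all peaks and 0.0439 with summed counts. Without promoter peaks the totals were −0.476 for BAZ1B (past the threshold), −0.0350 for BAZ2A, 0.0656 for RSF1 and −0.143 for RBBP7. The total of RSF1 was 0.0745 with library size only, and that of RBBP7 was −0.0425 with cyclic loess offsets.

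Replicate numbers shared by the groups showed no shared deviation: deviations from the group means correlated at 0.000132 over 184717 peaks. With 2 libraries in each group this value cannot settle whether the libraries were prepared in pairs. With the replicate block, 13 member peaks were higher and 7 lower (the RSF1 peak starting at 77710447 had an edgeR adjusted p of 0.0509), 4 promoters were higher and 0 lower, 0 passed against the segment in either direction, and locus totals counted 4 higher and 2 lower. Over all peaks edgeR called 21269 higher and 31041 lower, and DESeq2 8483 and 17869. Small peaks with few counts in the control libraries, the shallower group, limit what can be called.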
